A study of Drosophila melanogaster with 4 samples.

Results

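The centromere-proximal 3 Mb of the X arm sequence of Drosophila melanogaster were cut into consecutive windows of 5 kb, counted back from the last base of X in the file headers. This gave 600 windows, of 27936 such windows over the 13 sequences that hold clusters and beside 3884 on the rest of X. The windows were cut by position and not by their values, but this part of X was chosen with earlier results of these data known. They run from base 19422828 to base 22422827 of X on FlyBase release 5, and distances below are counted from the proximal end, that is from base 22422827 towards the distal arm. The arm sequence ends there, and the X heterochromatic scaffold is a separate sequence, so the proximal end is not the centromere itself.

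H3K9me3, trimethylation of histone H3 at lysine 9, is the mark of constitutive heterochromatin. It is bound by the chromodomain protein HP1a and keeps repeats and transposons compacted, and in flies it is densest around the centromeres, where the euchromatic arm gives way to pericentric heterochromatin. The proximal X is known for this border and for flamenco, a locus made of transposon remnants that gives rise to piRNAs, small RNAs that silence transposons in the gonad. Neither flamenco nor any other gene was placed among the windows, because no annotation of release 5 was used here.

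The mark was mapped by chromatin immunoprecipitation and sequencing in whole wild-type Oregon-R embryos 14 to 16 h old, crosslinked with 1.8% formaldehyde. There was 1 group of 2 ChIP libraries (replicates 1 and 2), with 1 list of enriched clusters each, and a series-wide list labelled as the set of replicates, which is no independent sample. Values of the 2 input libraries were not analysed here. Whole embryos mix many cell types, so a window covered in part of the cells cannot be told apart from one covered more weakly in all of them. The lists hold no read counts, so the depth is unknown, and with a single group no test between conditions is possible. Values are given for each library, and SDs are over these 2 libraries. No label tells whether separate batches of embryos were used, so this spread may be technical.

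H3K9me3 clusters covered the proximal 3 Mb unevenly: a few windows were filled from end to end and most held no cluster in either library. The covered share, the percentage of bases that lie in clusters, was 13.6% in replicate 1 and 12.5% in replicate 2, and the series-wide list gave 17.2%. On the rest of X it was 6.42%, 6.03% and 8.93%. The mean over the libraries was 13.0% ± 0.803 against 6.22% ± 0.276 (SD, n = 2), a difference of 6.81 percentage points ± 0.527 in favour of the proximal part in both libraries. The ratio was 2.09-fold ± 0.0362, and 7.87-fold when clusters scoring under the median of their list were left out.

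Most of this excess lay in a single stretch. In the step from 0.5 to 1 Mb 41.3% of bases were covered in replicate 1 and 38.1% in replicate 2. This sixth of the windows, 16.7% by length, held 50.6% and 50.9% of all covered bases of the proximal 3 Mb. Without it, the remaining windows were covered to 8.06% and 7.34%, which exceeded the rest of X by 1.48 points ± 0.236 (SD, n = 2).

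**Figure D1:**
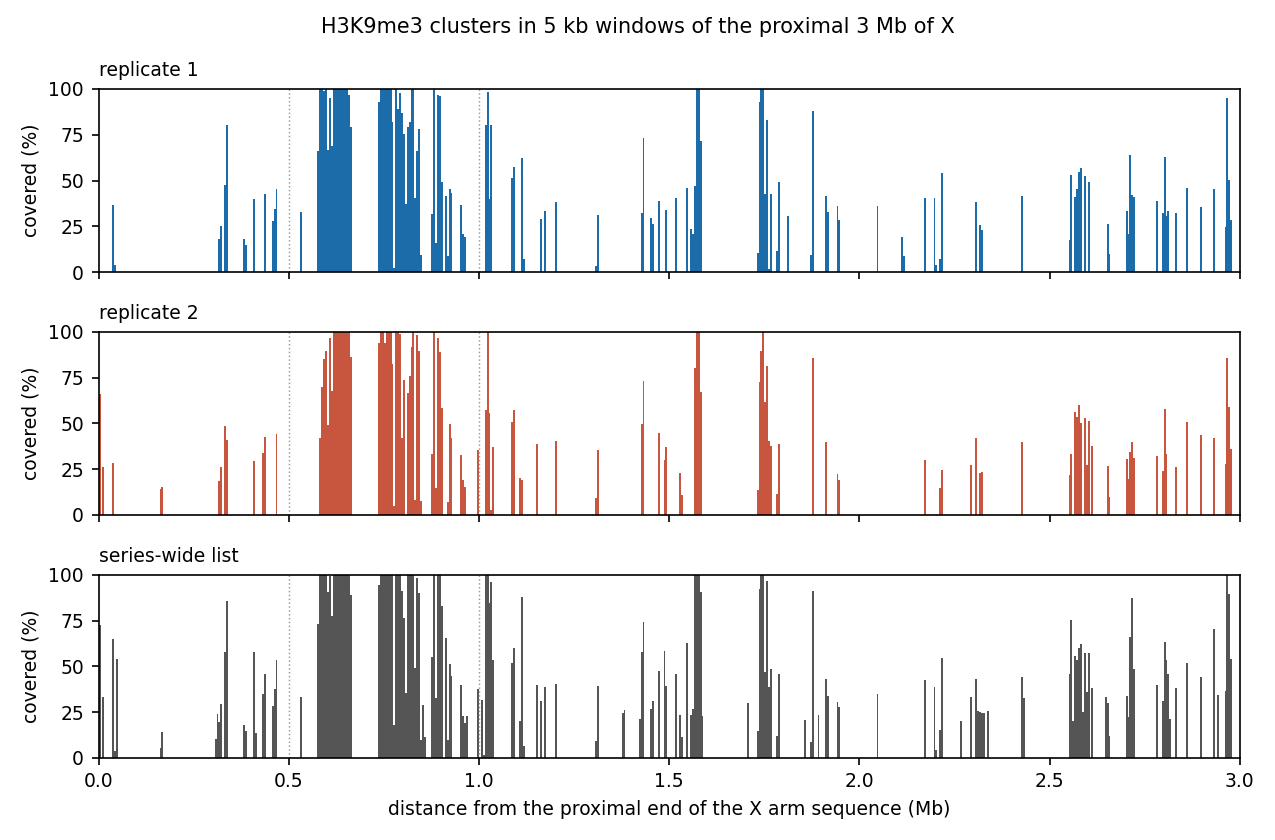
Share of bases covered by H3K9me3 clusters (vertical axis, %) in each of the 600 windows of 5 kb, by distance from the proximal end of X (horizontal axis, Mb), for replicate 1, replicate 2 and the series-wide list; dotted lines stand at 0.5 and 1 Mb. The filled windows crowd between the dotted lines, the part nearest the end is nearly empty, and short separate peaks reach to 3 Mb.

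A window was called marked where each library covered at least 50% of it, and empty where each covered 0%. By this rule 55 of 600 windows, or 9.17%, were marked, against a background of 3.17% on the rest of X, 4.46% over the 5 arms and 13.7% over all 13 sequences. Windows covered to 100% in both libraries numbered 19, or 3.17%, against 0.232% on the rest of X, 1.94% over the arms and 6.25% over all sequences. Empty windows were the larger class, at 433 or 72.2%, against 80.0% on the rest of X, 86.9% over the arms and 75.6% over all sequences. In 125 windows, 20.8%, both libraries had some coverage, against 13.8% on the rest of X, 9.80% over the arms and 21.1% over all sequences. The proximal windows were thus marked more often than those of the rest of X, but less often than the windows of all sequences, which include the heterochromatic scaffolds. No test across windows was made, since neighbouring windows share clusters.

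The marked windows formed 20 runs, of which 13 spanned at least 2 consecutive windows (called blocks here), 7 spanned at least 3, and 7 were single windows. The rest of X had 123 marked windows in 100 runs, of which 81 were single and 3 spanned at least 3 windows. Of the 55 proximal marked windows 36 lay in runs of at least 3, against 10 of 123 on the rest of X. The longest block on the rest of X measured 20 kb. Marked windows of the proximal part thus stood in long runs more often than those of the rest of X.

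The longest block was 60 kb long, from 605 to 665 kb from the proximal end (X:21757828-21817827). It was 95.0% covered in replicate 1 and 95.9% in replicate 2, with 97.1% by the series-wide list. Its length-weighted mean score was 3.05 in replicate 1 and 2.83 in replicate 2. The score is the authors' own value per cluster, its scale is not stated, and it is used only to describe and rank clusters. All windows in its middle, from 615 to 655 kb, were covered to 100% in all 3 lists. A single cluster carried most of the block: it ran over 45981 bp in replicate 1 (score 2.91) and over 52697 bp in replicate 2 (score 2.80), and both libraries shared the region X:21765279-21811205.

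The second block measured 40 kb and lay from 735 to 775 kb (X:21647828-21687827). It was covered to 96.8% in replicate 1 and 96.3% in replicate 2, with scores of 2.60 and 2.54. Replicate 1 had it as 1 cluster and replicate 2 as 2 clusters, which split the shared region into pieces of 20441 bp (X:21648736-21669176) and 17994 bp (X:21669480-21687473). Both libraries thus gave the same block, with a short break in one of them.

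Between these 2 longest blocks lay 70 kb with no cluster. All 14 windows from 665 to 735 kb (X:21687828-21757827) were covered to 0% in all 3 lists. The windows on either side of this gap were covered to 79.5% and 86.4% on its proximal side and to 92.9% and 94.0% on its distal side in replicates 1 and 2, so both edges were reached within 1 window. Whether the gap holds sequence to which reads can be assigned was not tested.

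**Figure D2:**
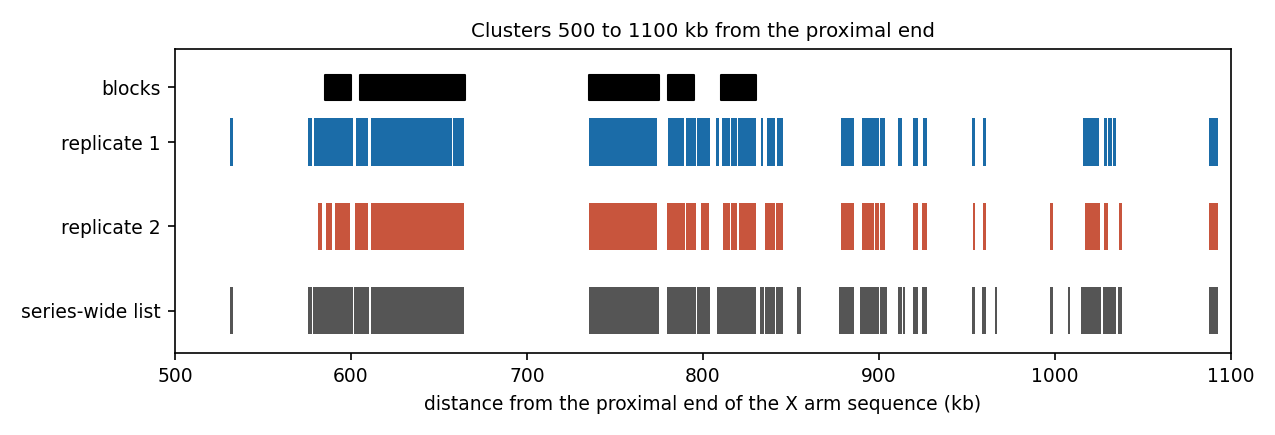
Clusters of replicate 1, replicate 2 and the series-wide list (coloured bars, to scale) between 500 and 1100 kb from the proximal end of X (horizontal axis, kb), with the 5 blocks of at least 3 marked windows in this range as black bars. The 60 kb and the 40 kb block face each other across the 70 kb without clusters, and uncovered stretches separate the groups of clusters distal of 845 kb.

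A further 3 long blocks flanked these 2. One of 15 kb, from 585 to 600 kb (X:21822828-21837827), was covered to 99.6% in replicate 1 and 81.6% in replicate 2. Another of 15 kb, from 780 to 795 kb (X:21627828-21642827), was covered to 95.6% and 99.6%. The third, of 20 kb from 810 to 830 kb (X:21592828-21612827), was covered to 90.4% and 83.5%. Their scores were 1.83 and 1.81, 2.86 and 2.34, and 2.61 and 2.52 in replicates 1 and 2, so the block nearest the proximal end had the lowest score of the 5 in both libraries.

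That proximal block marked the inner limit of the stretch. At its edge the libraries differed: the window from 580 to 585 kb was covered to 99.9% in replicate 1 and 42.2% in replicate 2, and the next one, from 575 to 580 kb, to 66.0% and 0%. The clusters there had unequal scores. In replicate 1 a cluster of 9636 bp (X:21832677-21842312) had a score of 0.845, beside a neighbour of 11063 bp with 2.35. In replicate 2 there were 2 clusters at the same place, of 3491 bp with a score of 0.667 and of 2108 bp with a score of 2.12. The series-wide list joined this part and its neighbour into 1 cluster of 22817 bp with a score of 1.10.

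Taken from its first to its last long block, the stretch from 585 to 830 kb was 245 kb long and was covered to 63.9% in replicate 1 and 60.6% in replicate 2. It held 31 marked windows and 14 empty ones, and the empty ones were those of the 70 kb gap. Distal of it, from 830 to 900 kb, followed blocks of 10 kb at 835 to 845 kb and 890 to 900 kb and a single marked window at 880 to 885 kb, which was covered to 100% in all 3 lists. The cluster with the highest score of the proximal 3 Mb belonged to the first of these, at X:21581759-21586126 in replicate 1 (4368 bp, score 4.01) and X:21581737-21587729 in replicate 2 (5993 bp, score 4.33). It was short, so the highest score and the longest clusters lay apart.

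The other clusters with the highest scores lay in the same stretch. In replicate 1 they were X:21758854-21765101 (score 3.89, with 2.80 for the cluster of replicate 2 that overlaps it) and X:21813086-21819884 (3.33, with 3.13 in replicate 2). In replicate 2 they were X:21813006-21820295 (3.13, the same place) and X:21603454-21606752 (3.07, with 2.68 in replicate 1). All of them were 0.6 to 0.9 Mb away from that end of X.

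The part nearest the end was weakly marked. In the first 0.5 Mb 4.34% of bases were covered in replicate 1 and 4.34% in replicate 2, with 7.79% in the series-wide list. None of its 100 windows was marked, as in the step from 2 to 2.5 Mb. Empty were 82 of them, beside 80.0% on the rest of X and 86.9% over the arms, so empty windows were about as frequent as elsewhere. Of the 38 segments of 0.5 Mb on the rest of X, 29 in replicate 1 and 28 in replicate 2 reached or exceeded its covered share. The first 0.5 Mb thus lay within the range of these segments. Its covered share was 1.88 points ± 0.276 below that of the rest of X, where the SD covers the libraries and not the variation along X. Leaving out clusters scoring under the median of their list, the difference was 0.311 points in replicate 1 and -0.00680 points in replicate 2 (mean 0.152 ± 0.225), so no deficit beyond the spread of the libraries was left. The equal totals of the libraries came from partly different bases: of the bases covered in either library, 45.3% were covered in both (Jaccard index 0.453).

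Within this part, coverage was lowest in the last 300 kb. Replicate 1 had 1 cluster there (2032 bp, score 1.02) and replicate 2 had 5, while the series-wide list had 7. Empty were 54 of 60 windows, or 90%, against 72.2% over the proximal 3 Mb, 80.0% on the rest of X and 86.9% over the arms. The covered share was 0.677% in replicate 1 and 2.51% in replicate 2, against 4.13% for the series-wide list. The spread of the libraries was of the order of this share, at 1.59% ± 1.30 (SD, n = 2). They shared 1 cluster, centred 0.0392 Mb from the end (X:22382637-22384668 in replicate 1 and X:22382921-22384345 in replicate 2).

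The very end of the sequence was covered in replicate 2 but not in replicate 1. The most proximal cluster of replicate 2, X:22421055-22423009 (score 1.02), and that of the series-wide list, X:22421017-22423017 (score 0.873), ran past the last base, by 182 and 190 bp, and were cut there. Next to it replicate 2 had 2 more clusters within 15 kb of the end, at X:22419021-22420555 (score 1.38) and X:22408118-22409428 (score 1.07). In replicate 1 no cluster lay within 38 kb of the end. Coverage of the final windows therefore rests on 1 library.

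From 320 kb onwards short clusters set in. Between 300 and 500 kb from the end 9.84% of bases were covered in replicate 1 and 7.10% in replicate 2. The same 2 places had the highest scores in both libraries, in a different order. In replicate 1 they were X:22083158-22087179 (score 2.19) and X:22088450-22090814 (score 1.98), and in replicate 2 X:22083000-22085051 (score 2.00) and X:22088300-22090732 (score 2.51). The longest stretch covered in neither library, 153295 bp at X:22103758-22257052, separated them from the few clusters of the last 300 kb. Within it the series-wide list had the cluster X:22111634-22113346 (score 0.646).

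**Figure D3:**
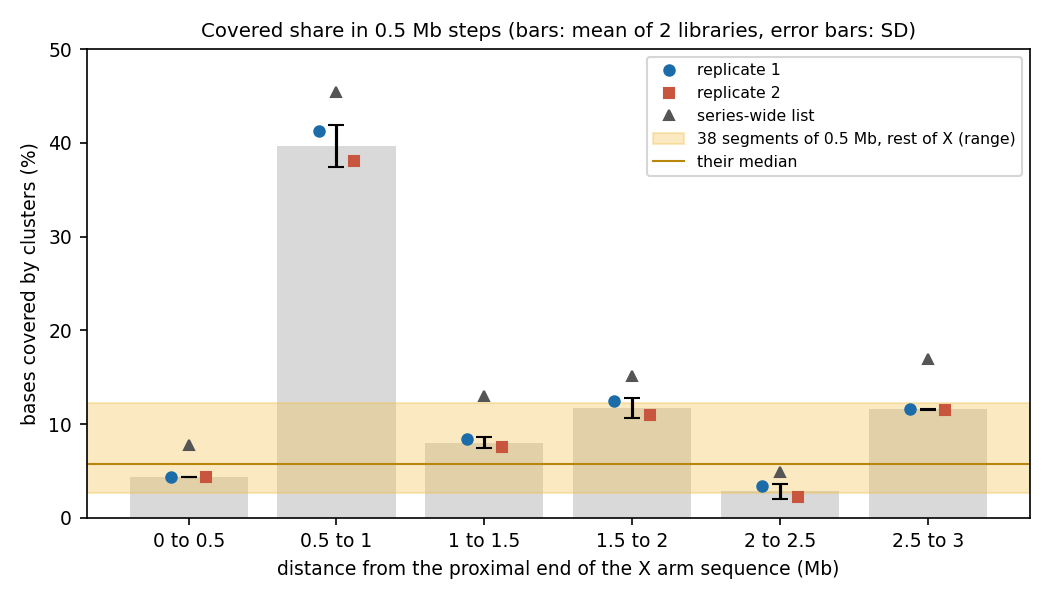
Share of bases covered by clusters (vertical axis, %) in 6 steps of 0.5 Mb from the proximal end of X (horizontal axis, Mb); bars are means of the 2 libraries with the SD, points are the lists, and the yellow band and line give the range and the median of the 38 segments of 0.5 Mb on the rest of X. The step from 0.5 to 1 Mb stands at 39.7%, above the band, while the other 5 steps have means between 2.81% and 11.7%, inside it.

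Towards the distal arm coverage fell within the step from 0.5 to 1 Mb and then varied without a steady decline. It was 48.8% ± 2.26 from 0.8 to 0.9 Mb, 13.1% ± 0.162 from 0.9 to 1 Mb and 19.2% ± 1.62 from 1 to 1.1 Mb (SD, n = 2). It was 8.46% and 7.60% in replicates 1 and 2 from 1 to 1.5 Mb, 12.5% and 11.0% from 1.5 to 2 Mb, 3.39% and 2.24% from 2 to 2.5 Mb, and 11.6% in both from 2.5 to 3 Mb. The next 0.5 Mb, from 3 to 3.5 Mb, was covered to 4.96% and 6.00%. Cut in the same way, the rest of X gave 38 segments with a lowest share of 2.68%, a median of 5.75% and a highest of 12.3% (mean of the libraries). In both libraries the step from 0.5 to 1 Mb lay above all 38 segments. The step from 2 to 2.5 Mb was reached or exceeded by 36 of 38 segments in replicate 1 and by 38 of 38 in replicate 2, and that from 2.5 to 3 Mb by 2 and 1.

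The marked windows followed the same pattern. There were 36 in the step from 0.5 to 1 Mb, then 5, 8, 0 and 6 in the following steps of 100 windows each. From 1 to 3 Mb 19 of 400 windows, or 4.75%, were marked. This was near the 4.46% of the 5 arms, beside 3.17% on the rest of X and 13.7% over all 13 sequences. At the scale of 100 kb, the segments from 0.6 to 0.7 and from 0.7 to 0.8 Mb reached 60.1% ± 0.225 and 56.7% ± 1.21, and the next one 48.8% ± 2.26 (SD, n = 2). The 20 segments between 1 and 3 Mb had a median of 5.30% and a highest of 27.0%, beside a median of 5.18% and a highest of 33.4% over the 194 on the rest of X.

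Only 2 blocks of at least 3 windows lay distal of 1 Mb, both 15 kb long. The first, from 1570 to 1585 kb (X:20837828-20852827), was covered to 90.5% in replicate 1 and 89.1% in replicate 2, with scores of 2.17 and 2.11. The second, from 1735 to 1750 kb (X:20672828-20687827), was covered to 97.6% and 87.3%, with scores of 1.80 and 1.74. Between them lay the second longest stretch covered in neither library, 150745 bp at X:20688514-20839258. The series-wide list had clusters within this stretch, among them X:20713197-20714704 with a score of 2.35. Both blocks lay over 0.7 Mb from the nearest of the 5 long proximal blocks.

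Smaller islands made up the remainder. Blocks of 10 kb lay at 1015 to 1025 kb (X:21397828-21407827, covered to 89.1% and 78.7%, scores 2.92 and 2.95), at 1085 to 1095 kb (54.3% and 54.2%), at 2575 to 2585 kb (55.8% and 55.2%) and at 2965 to 2975 kb (72.8% and 72.4%) in replicates 1 and 2. The first had scores like those of the long blocks, and its shared region of 7776 bp was among the 10 longest of the proximal 3 Mb. In the step from 2.5 to 3 Mb the 11.6% came from 22 clusters in replicate 1 and 25 in replicate 2, of which 2 in each reached the median score of the whole list. With only such clusters its share was 1.09%, close to the 0.935% of the rest of X, while that of the step from 1.5 to 2 Mb was still 5.52%.

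Clusters from 0.5 to 1 Mb had larger median lengths and scores than those nearer the end, those from 1 to 3 Mb and those on the rest of X. From 0.5 to 1 Mb there were 27 clusters in replicate 1 and 24 in replicate 2, with medians of 4368 bp and 4292 bp for their length. Their median score was 2.33 and 2.28. Of these, 12 and 11 were longer than 5 kb. From 1 to 3 Mb the medians over 62 and 58 clusters were 2080.5 bp and 2044 bp for length, and 1.15 and 1.06 for score. On the rest of X the medians were 2110.5 bp and 2079 bp, and 1.12 and 1.09. In the first 0.5 Mb the 10 and 12 clusters had median lengths of 2076 and 1730 bp, at scores of 1.21 and 1.13. Away from the stretch, clusters of the proximal part had lengths and scores near those of the rest of X.

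Clusters from 0.5 to 1 Mb were also denser than on the rest of X, at 54 per Mb in replicate 1 and 48 in replicate 2. The step from 2.5 to 3 Mb had 44 and 50. The proximal 3 Mb held 33.0 clusters per Mb in replicate 1 and 31.3 in replicate 2, and the rest of X 24.8 and 23.4. The median gap between neighbouring clusters was 2077.5 bp and 2896 bp from 0.5 to 1 Mb, 16382 bp and 14367 bp from 1 to 3 Mb, and 21789 bp and 24077.5 bp on the rest of X. Clusters that reached the median score of their whole list made up 63.0% and 66.7% of those from 0.5 to 1 Mb, 8.06% and 8.62% from 1 to 3 Mb and 8.09% and 8.57% on the rest of X.

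**Figure D4:**
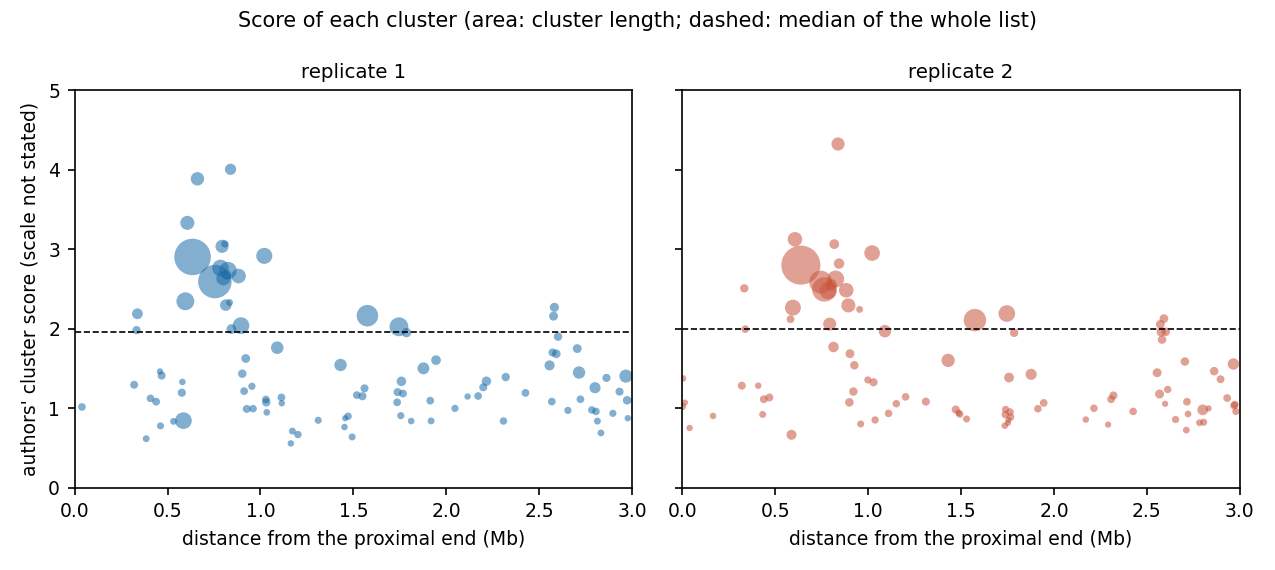
Authors' score of each cluster (vertical axis, scale not stated) by distance from the proximal end of X (horizontal axis, Mb) in replicate 1 and replicate 2; the area of a point is proportional to the cluster's length and the dashed line is the median score of the whole list. Large points and points above the line gather between 500 and 1100 kb, and those above the line elsewhere are few.

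By covered bases, the 2 libraries overlapped more closely within the step from 0.5 to 1 Mb than around it. The clusters of this step were longer, and the index was not adjusted for length. The Jaccard index of covered bases was 0.859 from 0.5 to 1 Mb, 0.637 from 1 to 3 Mb, 0.664 on the rest of X and 0.730 over the proximal 3 Mb. Of the windows, 55 were marked in both libraries, 10 in replicate 1 alone and 9 in replicate 2 alone, and 4 differed by over 50 points. Across the 600 windows the covered shares had a Pearson r of 0.926 and a Spearman rho of 0.855, where neighbouring windows share clusters and most windows are at 0 in both. Of the clusters of replicate 1, 73 of 99 overlapped replicate 2 by at least 1 bp, or 73.7% (exact 95% interval 63.9 to 82.1%). Of those of replicate 2, 78 of 94 overlapped replicate 1, or 83.0% (73.8 to 89.9%). On the rest of X the same shares were 78.2% and 82.9%, so by number of clusters the proximal 3 Mb did not stand above it. From 0.5 to 1 Mb they were 77.8% in replicate 1 and 95.8% in replicate 2.

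Clusters found in 1 library alone were short and had low scores. For the 26 of replicate 1 the medians were 1633 bp and a score of 1.03, and for the 16 of replicate 2 they were 1733.5 bp and 0.957. For those found in both they were 2524 bp and 1.41 in replicate 1, and 2447.5 bp and 1.35 in replicate 2. Where 1 cluster of each library overlapped no other, as in 63 pairs, the edges agreed closely: over 126 edges the median difference was 129 bp, 75 edges lay within 200 bp of each other and 7 lay over 1000 bp apart. The scores of these pairs had a Spearman rho of 0.838, across clusters that are not independent replicates.

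The series-wide list held 131 clusters in the proximal 3 Mb, of which 67 overlapped both libraries, 39 overlapped 1 and 25 overlapped neither. These were 51.1%, 29.8% and 19.1%, near the 52.5%, 25.1% and 22.4% of the rest of X. All 55 marked windows were at least 50% covered in it, and 34 more reached this level, 16 of them marked in neither library. The 25 clusters found in neither library had a median length of 1273 bp, and none exceeded 3 kb. From 0.5 to 1 Mb the share was 45.5%, and over the first 0.5 Mb it was 7.79%.

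Set beside the other arms, the X differed from 2L, 2R and 3L in the share and in the place of the coverage. The proximal 3 Mb of 2R were covered to 49.9% ± 0.680, of 3L to 44.7% ± 0.754, of 2L to 27.0% ± 0.124, of X to 13.0% ± 0.803 and of 3R to 3.03% ± 0.314 (SD, n = 2 each). On 2L, 2R and 3L the first 0.5 Mb were covered to 81.7% ± 0.0980, 85.3% ± 0.277 and 83.6% ± 2.19, against 4.34% on X and 6.56% ± 0.235 on 3R. From 0.5 to 1 Mb the shares were 52.5% ± 0.316, 87.0% ± 0.929 and 85.6% ± 0.956 on these 3 arms, 39.7% ± 2.26 on X and 5.14% ± 0.577 on 3R. The step between these parts, 35.3 points ± 2.26 upwards on X, exceeded the spread of the libraries. The share also rose on 2R and 3L, by far less, and it fell on 2L and 3R. The arm sequences end at different places relative to the centromere, so equal distances on 2 arms are not equal places, and no test across the arms was made, each being 1 sequence.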

How the data were processed

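H3K9me3 ChIP-seq of wild-type Drosophila embryos was analysed from 2 per-library lists and 1 series-wide list of enriched clusters. The submitters' processing notes name Bowtie 0.12.7 as aligner, and the file headers name FlyBase release 5. The caller, its threshold and the way replicates were combined for the series-wide list were not given in the sources used. The start, end and score of each cluster are the authors' deposited values; the scale of the score is not stated. The shortest cluster is 1301 bp in each library and 1001 bp in the series-wide list. Depth is unknown.

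Clusters were cut at the end of X, turned into covered bases, and summed over windows with numpy 2.4.6 and scipy 1.17.1 under Python 3.11.15. Clusters were put in a part by their midpoint. Shares of clusters carry exact 95% Clopper-Pearson intervals, which cover only counting error. The functions were tested on simulated clusters. No test between groups was possible, and none across windows was made. Unsequenced gaps within X were not measured. Regions were drawn by rule from several sets. These were blocks of at least 3 marked windows, the 10 longest regions covered in both libraries and the 3 longest covered in neither. Further sets were the 3 clusters with the highest score and the most proximal cluster of each list. Series-wide clusters over 3 kb found in neither library were another set, of which there were 0. Not all of the 10 longest and the 3 longest regions are given above. Other regions were chosen after their values were seen. The members, lists and rules were chosen with earlier results of these data known. The gene table at hand is of release 6, and its positions were not mixed with those of release 5. Alternatives were each library alone, the series-wide list, a score limit, joined clusters, other windows, thresholds, borders and lengths.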

Additional observations from a re-analysis of the deposited data

How the results depend on the processing

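No paired analysis was possible because the inputs, which share replicate numbers with the ChIP libraries, have no values here. Of 128 recomputed values 32 are single-library shares, differences and medians, which by construction lie within 1 SD of a mean of 2 and show no stability. Of the other 96, 45 stayed within the spread of the libraries, or within 1.5 times for counts, 50 moved and 1 reversed. For the Jaccard index the limit was instead a counting error of 0.00129 that treats bases as independent, which neighbouring bases are not. The proximal excess over the rest of X, the step between the first and the second 0.5 Mb and the rank of the step from 0.5 to 1 Mb as the highest of the 6 kept their direction under each alternative run.

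Leaving out clusters scoring under the median of their list gave covered shares of 7.36% for the proximal 3 Mb, 0.935% for the rest of X and 25.5% for the proximal 3 Mb of the other 4 arms. By 0.5 Mb step they were 1.09, 34.7, 1.74, 5.52, 0 and 1.09%. The ratio to the rest of X rose to 7.87, the excess without the step from 0.5 to 1 Mb fell to 0.952 points, and the deficit of the first 0.5 Mb reversed to 0.152 points on average, in replicate 1 alone and within the spread of the libraries. The Jaccard index became 0.817, the median length 6706.25 bp and, by construction, the median score 2.55.

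The series-wide list gave 17.2%, 8.93% and 34.7% for the same 3 shares and 7.79, 45.5, 13.0, 15.1, 4.89 and 16.9% by step. The excess was 8.27 points (2.61 without the step from 0.5 to 1 Mb), the ratio 1.93, the first 0.5 Mb lay -1.15 points from the rest of X, the step was 37.7 points and the median score 0.900. Marked windows numbered 89 and the longest block measured 90 kb.

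Joining clusters within 1 kb moved the first step to 4.39%, the last to 11.7% and the Jaccard index to 0.734. A proximal part of 2 Mb was covered to 15.9% (excess 9.67 points) and one of 4 Mb to 11.2% (4.89 points). The step between the first parts was 31.2 points with the border at 0.4 Mb and 37.8 points at 0.6 Mb. Windows of 2.5 kb gave 135 marked and 929 empty windows, and windows of 10 kb gave 24 and 187, with 6 blocks; these counts follow the number of windows. A limit of 25% gave 100 marked windows and a longest block of 85 kb, and one of 75% gave 8 blocks. Bridging every single unmarked window between marked ones gave a longest block of 110 kb. It ran from 735 to 845 kb across several such windows and did not include the 60 kb block. The longest block was 60 to 90 kb with single libraries, 90 kb without replicate 2. The alternatives for the ratio, the deficit of the first 0.5 Mb and the excess without the step from 0.5 to 1 Mb were chosen after seeing the data. Where no construction is named, the cause was not tested.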
